A study of Macaca fascicularis and Macaca mulatta with 24 samples.

Results

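The comparison described here set cortex from monkeys given TatNR2B9c against cortex from monkeys given placebo, in the hemisphere without the stroke, 1 h after the artery was closed. Its members were the arrays titled as left hemisphere and 1 hour, 3 with TatNR2B9c and 3 with placebo, 6 of the 24 arrays of the series. All animals were cynomolgus macaques (Macaca fascicularis) with an occlusion of the right middle cerebral artery (MCAO), so the placebo animals also had a stroke and no group was free of surgery. Placebo or 2.6 mg/kg TatNR2B9c was given into a vein 5 minutes after the occlusion, and cortex was taken 1 h or 6 h after it, on the ischemic (right) or non-ischemic (left) side, with 3 animals per group. Each array held Cy5-labelled cortex RNA against a Cy3-labelled Universal Reference RNA, with no dye swap, and each value is a log2 ratio of Cy5 over Cy3 unless a channel is named. The cortex was a whole biopsy of mixed cells, so fewer cells of a type and less RNA per cell cannot be told apart.

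The NMDA receptor is a glutamate-gated channel that admits calcium, and its NR2B subunit (GRIN2B) is held by the scaffold PSD-95 (DLG4) next to neuronal nitric oxide synthase (NOS1). When too much glutamate is released in a stroke, calcium entering through this channel drives the synthase and injures neurons. TatNR2B9c joins a cell-penetrating stretch of the HIV Tat protein to the tail of NR2B, so that it takes the tail's place on PSD-95 without blocking the channel. Genes switched by neuronal activity, such as the FOS, JUN and EGR families, respond to NMDA receptor calcium within the hour in cortex.

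Per the file headers the placebo arrays of 1 h were read with version 9.5.3.1 of the extraction software and the TatNR2B9c arrays with version 10.7.3.1, so treatment and scanning campaign cannot be told apart in any value below. In Cy3 the percentage of probes clear of background was 18%, 50.7% and 15.7% on placebo arrays 1, 2 and 3 and 66.1%, 68% and 51.8% on the TatNR2B9c arrays. These groups did not overlap (28.1% ± 19.6 against 62% ± 8.86, SD, n = 3 each), and the two-sided exact permutation test gave p = 0.1, the smallest that 3 against 3 arrays allow, or 0.2 adjusted over both channels. In Cy5 the shares were 74.7%, 75.5% and 45.4% with placebo and 55.5%, 46.1% and 72.6% with TatNR2B9c, and the groups overlapped (exact permutation p = 0.6). Placebo array 1 stood apart: its log2 ratios had an SD over genes of 0.36, against 0.81 to 1.09 on the other 5 arrays, and they correlated at 0.41 and 0.45 across genes with the other placebo arrays. The other 5 did not sort by treatment, as the highest correlation, 0.93, was between placebo array 2 and TatNR2B9c array 3. Placebo arrays 2 and 3 correlated at 0.84 and the TatNR2B9c arrays at 0.86 to 0.91. Cortex RNA carried its neuronal markers, with 24 of 27 measured neuron markers, 16 of 19 astrocyte markers and 14 of 21 oligodendrocyte markers well above background in Cy5 on all 6 arrays. For red cell, neutrophil and lymphocyte genes the number was 1 of 7, 1 of 11 and 1 of 12.

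Probes behind the results are shown first, because runs of G in them recur through the results. Each is a stretch of 30 bases of a 60-base probe, taken from the deposited array files, at the part of the probe richest in G, with runs of 3 or more G in capitals. The first 3 belong to the genes with the largest differences among those with a symbol.
ZFYVE19: gactGGGaGGGccgaGGGaagaagtcGGGG
SLC32A1: ttcGGGGatGGGGGGtGGGaGGGGataGGG
ANP32A: tgcGGGGGGaGGGaGGGcGGGtGGGGGtgg
The next 4 belong to genes whose cortex signal alone differed in the same direction as the ratio.
CaMKIINalpha: atctggtatcaggccGGGagacagatgagg
SGTB: gctgttagaaagtagcacttgatgcaaGGG
MAP2: ggccatttgtgatacttcctcatatacttg
MUPCDH: gcGGGcgctagaggtcccgctcccctaacc
On the rhesus build rheMac2, as the array files give positions, the ZFYVE19 probe lies at chr7:19195426-19195485 (+), SLC32A1 at chr10:25724398-25724457 (-), ANP32A at chr7:47399923-47399982 (-), CaMKIINalpha at chr1:23139737-23139796 (-), SGTB at chr6:63545432-63545491 (-), MAP2 at chr12:73520875-73520934 (+) and MUPCDH at chr14:426628-426687 (-). The exon or untranslated region under each probe was not analysed here. The whole probes of ZFYVE19, SLC32A1 and ANP32A held 4, 5 and 5 such runs.

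In the log2 ratio, more genes were higher with TatNR2B9c than lower, and the higher genes with a symbol included MAP2, SNPH and PRKCB. Of 15967 genes tested, 136 were higher with TatNR2B9c and 6 lower at an adjusted p under 0.05 (limma with Benjamini-Hochberg adjustment), which is 0.852% and 0.0376% of the genes, or 0.889% in both directions. The higher genes differed by a median of 1.73 on the log2 scale (0.62 to 3.98) and 113 of them were at least 2-fold higher, while 5 of the 6 lower genes were at least 2-fold lower. The groups did not overlap for 134 of the 136 and for all 6 lower genes, which the choice of these genes by the same values favours. Over all 15929 genes with a value on each of the 6 arrays, the groups did not overlap for 17.3% (10.8% higher, 6.5% lower). At an unadjusted p under 0.05 the number was 1637.

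These counts rested on the scaling and on single arrays. The share of higher calls was 95.8% with loess, while the processed signals of the extraction software gave 518 higher and 1400 lower, ratios scaled to equal spread gave 1199 and 448, and centring each array on its median gave 4068 and 8243. Those settings moved the median of all genes from 0.02 to -0.37 with processed signals and -0.97 with median centring. Without placebo array 1, 2 or 3 the number of called genes was 46, 222 or 50, and without TatNR2B9c array 1 or 2 it was 19 or 14. The number was 0 when limma was fitted to the 6 arrays alone, where 1540 genes passed an unadjusted p under 0.05. A further setting left out the weak-reference arrays, namely placebo arrays 1 and 3 of left cortex and placebo array 3 of right cortex at 1 h. Placebo array 2 was then the only placebo array of left cortex at 1 h.

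Each channel was also read alone. The channels were normalised by quantiles apart from the loess ratio, so their differences do not add up to that of the ratio and do not place it in a channel. The reference RNA should be alike on every array, yet in Cy3 alone 2424 genes (15.2%) were higher and 2085 (13.1%) lower on the TatNR2B9c arrays, 28.2% in all. In Cy5 alone, which reads the cortex without the reference, 1620 (10.1%) were higher and 2015 (12.6%) lower, 22.8% in all. When each array was centred on its 75th percentile in place of quantile normalisation, the Cy5 split became 9722 higher and 1772 lower and the Cy3 split 757 and 167. Without placebo array 3 the Cy5 count was 2394 and without TatNR2B9c array 2 it was 2209. The Cy3 count was 2754 and 2875 without TatNR2B9c array 1 and 2. When limma was fitted to the 6 arrays alone, it fell to 33 in Cy3, with 32 higher and 1 lower, while the Cy5 count was 4338. The Cy3 count thus rested on the spread taken from all 24 arrays.

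A high ratio favours a high Cy5 and a low Cy3, so the signs and calls by channel of the genes chosen by ratio are a description. For the 136 genes higher in the ratio, 121 had the same sign in Cy5 and 58 were also called higher there, none being called lower. The same sign in ratio and Cy5 was held by 55.7% of all genes. In Cy3, 101 of the 136 had the opposite sign and 64 were called lower (13.1% over all genes). The median difference of the 136 was 0.65 in Cy5 and -1.17 in Cy3, and 32 genes were called in Cy5 and not in Cy3. All 6 lower genes were called higher in Cy3 (median 1.87), and 1 of them, MUPCDH, was called lower in Cy5, while 3 were called higher there. Ratio and Cy5 were called with the same sign for 59 genes (0.37%), a number that fell to 20, 21, 8 and 4 without placebo array 1, placebo array 3, TatNR2B9c array 1 and TatNR2B9c array 2.

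**Figure D1:**
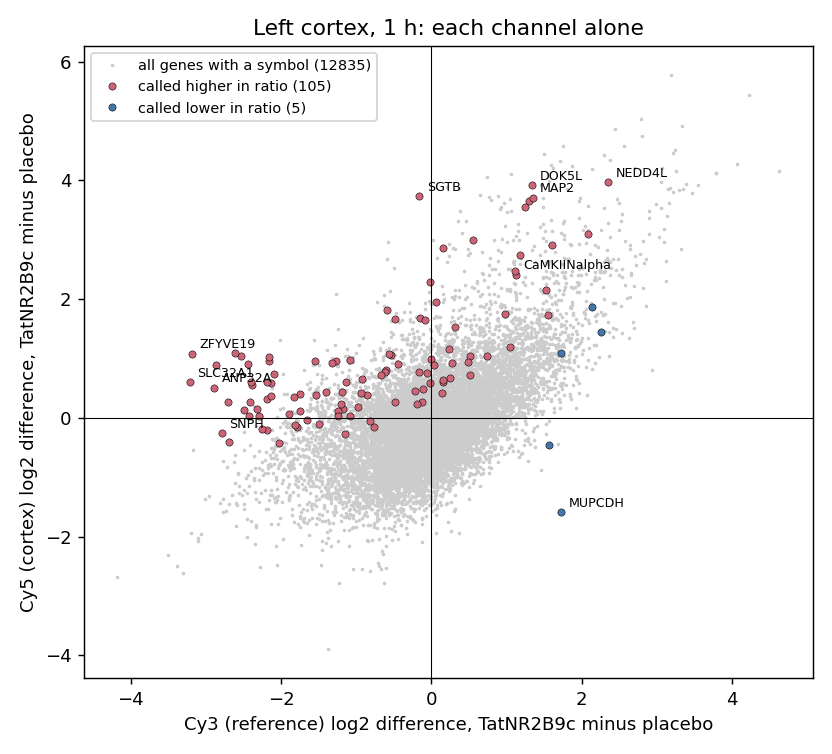
Difference of TatNR2B9c minus placebo in Cy5 alone (vertical, log2) against Cy3 alone (horizontal, log2) for the 12835 genes with a symbol, left cortex at 1 h. The 105 genes with a symbol that were called higher in the ratio (red) run from the upper left, where ZFYVE19 lies at -3.18 in Cy3, to the upper right, where MAP2 lies at 3.71 in Cy5, and the 5 called lower (blue) lie to the right of 0 in Cy3.

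Among genes with a symbol, the 3 largest differences belonged to genes whose placebo ratio was far below 0. ZFYVE19, which acts at the abscission checkpoint of dividing cells, had log2 ratios of -3.20, -2.37 and -5.32 on the placebo arrays and 0.02, 0.32 and -0.54 with TatNR2B9c. All 3 TatNR2B9c arrays lay above all placebo arrays, by 3.56 (SE 0.47, limma adjusted p = 0.0017), and this call was lost in 1 of 21 alternatives, the 6 arrays alone. In Cy5 alone it was 8.14, 8.01 and 8.14 against 9.32, 9.26 and 8.96, a difference of 1.08, while its Cy3 signal was 12.99, 9.14 and 11.60 against 8.06, 7.76 and 8.38, a difference of -3.18. So its reference signal was higher on each placebo array than on any TatNR2B9c array.

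SLC32A1, the vesicular transporter that loads GABA and glycine, followed the same pattern with log2 ratios of -4.31, -4.23 and -3.78 against -0.25, 0.07 and -2.45. It differed by 3.23 (SE 0.51, limma adjusted p = 0.00649), with 0.60 in Cy5 (adjusted p = 0.316) and -3.21 in Cy3 (adjusted p = 0.00968). Its Cy5 signals overlapped between the groups, and its Cy3 signal on placebo array 1, 14.21, was the highest of the 6. The call was lost without TatNR2B9c array 1 (2.91) or array 2 (2.75).

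ANP32A, an acidic nuclear phosphoprotein, and KIAA1524, an inhibitor of protein phosphatase 2A also known as CIP2A, were higher by 3.08 (limma adjusted p = 0.0206) and 2.80 (adjusted p = 0.00471). ANP32A read -4.57, -4.14 and -4.59 with placebo and -0.58, -0.09 and -3.40 with TatNR2B9c, so that TatNR2B9c array 3 lay nearest to the placebo arrays. KIAA1524 read -3.70, -3.43 and -3.31 against -0.20, 0.28 and -2.10, and its cortex channel was well above background on 2 placebo arrays and 1 TatNR2B9c array only. Neither gene passed in Cy5, with differences of 0.51 and 0.89, and both were called lower in Cy3, by -2.89 and -2.87. ANP32A lost its call without any 1 of placebo arrays 1 and 3 and TatNR2B9c arrays 1 and 2.

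SNPH, PRKCB and NTRK2 were also among the 8 largest differences of genes with a symbol. Syntaphilin (SNPH), which anchors mitochondria in axons, had log2 ratios of -0.08, 1.68 and -0.81 with placebo and 3.41, 3.35 and 2.66 with TatNR2B9c. It was 2.88 higher (SE 0.53, limma adjusted p = 0.0126), yet its Cy5 signals overlapped, at 13.83, 14.25 and 13.98 against 14.03, 13.68 and 13.58. Its Cy3 signal was lower by 2.79 with no overlap, from 12.04, 10.62 and 12.71 to 9.15, 9.01 and 8.84.

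PRKCB, the beta isoform of protein kinase C, was 2.86 higher (SE 0.56, limma adjusted p = 0.0214; 1.34 by its other probe), at 0.05, 2.17 and 1.79 against 4.58, 4.33 and 3.69. It rose in Cy5 by 0.92 (adjusted p = 0.0212) and fell in Cy3 by 1.32. NTRK2, the TrkB receptor for BDNF, was 2.76 higher (SE 0.58, limma adjusted p = 0.0291), at 0.39, 2.39 and 1.57 against 4.61, 4.37 and 3.65, but its other probes gave 1.95, 0.96 and 0.13. It passed in neither channel alone. Placebo array 1 was the lowest array for PRKCB and NTRK2, and without it neither was called, at 2.22 and 2.23. Neither was called without TatNR2B9c array 1 or 2 or with the mean of all kept probes of a gene, and NTRK2 was not called without placebo array 3. SNPH lost its call without placebo array 1 or 3 or TatNR2B9c array 1 or 2 (2.34 to 2.77). With median centring in place of loess the differences of SNPH, PRKCB and NTRK2 turned to -1.53, -1.42 and -1.51.

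The genes that follow were called in the ratio and, with the same sign, in the cortex channel. MAP2, the microtubule protein of dendrites, had log2 ratios of 0.11, 0.77 and 0.38 with placebo and 2.19, 3.21 and 2.42 with TatNR2B9c. Its 3 TatNR2B9c values were all above the placebo values, by 2.19 or 4.55-fold (SE 0.39, limma adjusted p = 0.0101), a call lost without placebo array 1 (2.03) or TatNR2B9c array 2 (1.89). It was also lost with processed signals or the series matrix (1.72 in each), with median centring (0.95) and without the weak-reference arrays (1.84). In Cy5 alone MAP2 read 8.91, 9.22 and 8.83 against 12.27, 12.99 and 12.83, a difference of 3.71 (adjusted p = 1.22e-06). In Cy3 it was also higher, by 1.35, and its Cy3 signal was well above background on no placebo array.

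CaMKIINalpha, an inhibitor of the calcium-dependent kinase CaMKII, read 0.34, 1.70 and 0.96 against 3.46, 3.55 and 4.03. It was 2.68 higher (SE 0.49, limma adjusted p = 0.0126), and its Cy5 signal was 14.02, 13.67 and 13.83 against 15.99, 15.88 and 16.89, a difference of 2.41. In Cy3 it was higher too, by 1.12 (adjusted p = 0.0219), and the 2 channel differences, normalised apart, do not add up to that of the ratio. With median centring it turned to -2.17, and it lost its call without placebo array 1 or 3 or TatNR2B9c array 1 or 2, at 2.35 to 2.78.

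SGTB, a co-chaperone with tetratricopeptide repeats, gave the same direction in the ratio (-0.24, 0.29 and 0.13 against 2.34, 2.82 and 1.90) and in Cy5 (8.38, 8.14 and 8.09 against 12.39, 11.73 and 11.67). Its differences were 2.29 in the ratio (SE 0.51, limma adjusted p = 0.0394), 3.73 in Cy5 (adjusted p = 6.39e-07) and -0.16 in Cy3 (adjusted p = 0.731). So its cortex signal was higher on all 3 TatNR2B9c arrays while the reference signals overlapped. Its Cy3 signal was well above background on no placebo array, and its call was lost without placebo array 1 (2.14) or 3 (2.33) or TatNR2B9c array 1 (2.30) or 2 (2.06).

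NEDD4L, a ubiquitin ligase of ion channels, was 1.99 higher in the ratio (SE 0.31, limma adjusted p = 0.0057) and 3.97 in Cy5, with 0.14, 0.64 and 0.42 against 2.71, 2.14 and 2.32. The reference signal of NEDD4L was higher too, by 2.35 in Cy3 (limma adjusted p = 7.74e-06), and well above background on 1 placebo array. It kept its call without each array in turn, but lost it with processed signals (1.04), the series matrix (1.03), median centring (0.28) and without the weak-reference arrays (1.75). DOK5L, a docking protein of receptor kinases, and VAX2, a homeobox factor of the ventral eye, were 2.29 and 1.91 higher in the ratio (limma adjusted p = 0.0272 and 0.0101) and 3.92 and 2.29 in Cy5. DOK5L read 0.05, 0.76 and 0.44 against 2.55, 2.92 and 2.66, and in Cy3 it was also higher, by 1.34 (limma adjusted p = 0.00317). VAX2 differed by -0.02 in Cy3. VAX2 read -0.74, 0.42 and 0.07 against 1.81, 2.31 and 1.35, and turned to -0.96 with median centring. Both lost their call without placebo array 1 (2.11 and 1.58) and without TatNR2B9c array 1 or 2, and DOK5L also without placebo array 3.

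The 6 lower genes included 5 with a symbol. MUPCDH, a mucin-like protocadherin, read 0.29, 0.25 and 0.07 with placebo and -1.37, -1.34 and -1.46 with TatNR2B9c. It was 1.59 lower (a log2 difference of -1.59, SE 0.33, limma adjusted p = 0.0285) and lower in Cy5 as well, at 10.44, 10.10 and 9.29 against 7.77, 8.86 and 8.44. Its call did not hold without placebo array 1 or 3, or without any 1 of the TatNR2B9c arrays, at differences of -1.55 to -1.66.

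ENTPD5, a nucleotide-cleaving enzyme of the endoplasmic reticulum, differed by -1.03 in the ratio, C14orf162 by -1.02 and SLC25A10, the mitochondrial dicarboxylate carrier, by -0.89. In Cy5 these 3 were higher, by 1.86, 1.44 and 1.10, and in Cy3 they were higher still, by 2.14, 2.25 and 1.73. The cortex signal of these 3 genes was thus not lower in Cy5 alone. ENTPD5 lost its call without placebo array 3 or TatNR2B9c array 1, C14orf162 without any 1 array but TatNR2B9c array 3, and SLC25A10 without any 1 array but placebo array 2.

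**Figure D2:**
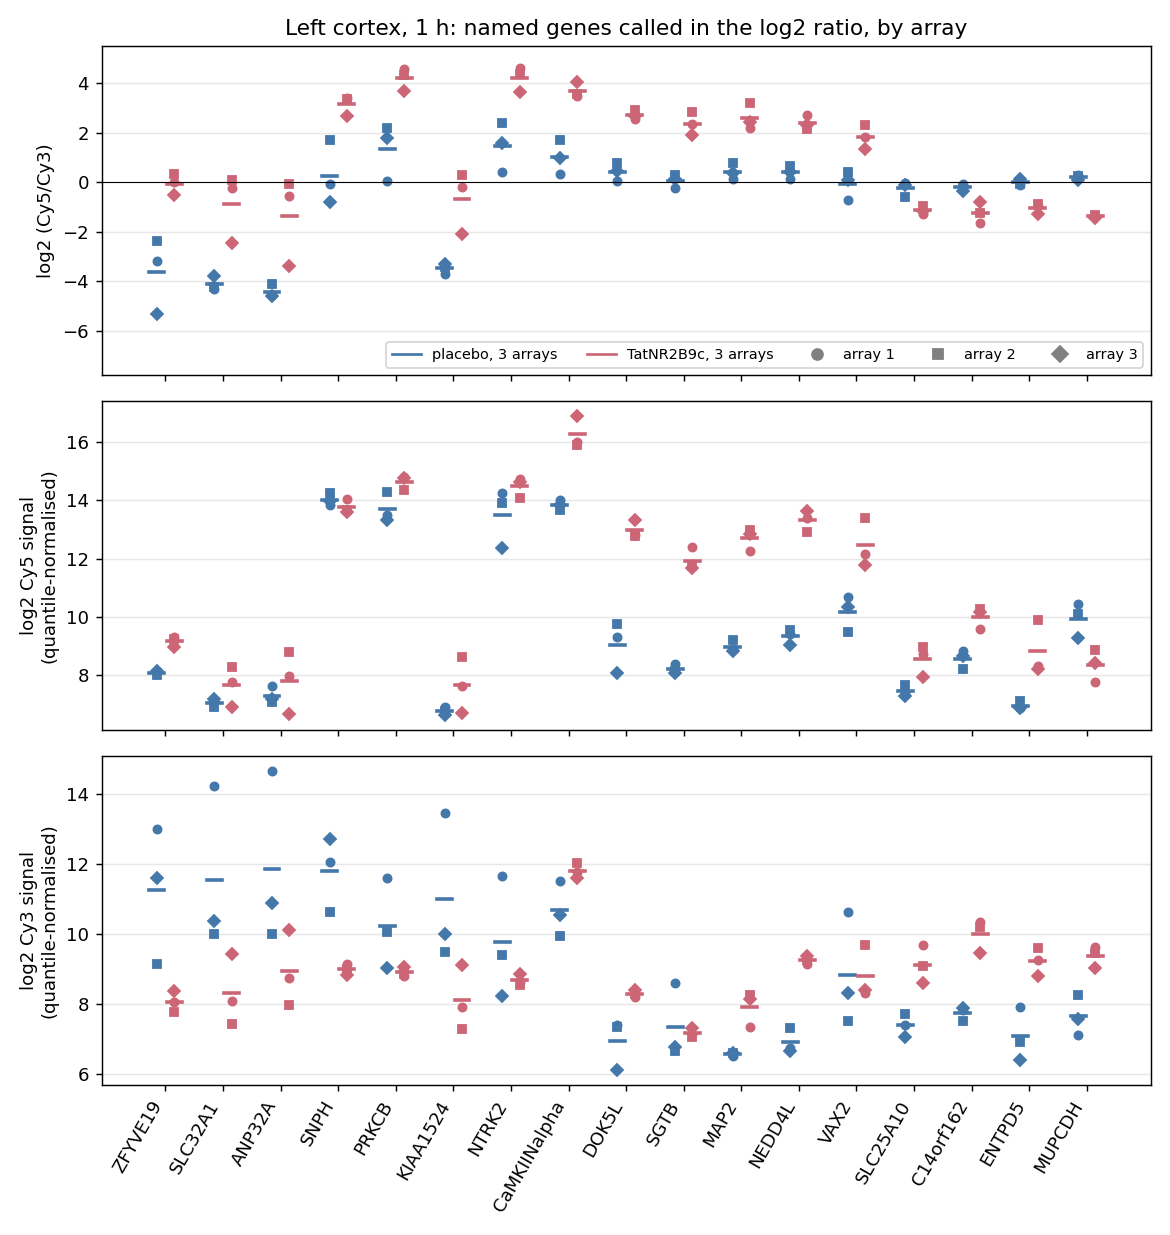
Values of the named genes called in the log2 ratio on the 3 placebo (blue) and 3 TatNR2B9c (red) arrays of left cortex at 1 h: log2 ratio (top), log2 Cy5 (middle) and log2 Cy3 signal (bottom), with a marker shape per array and a bar at each group's mean. In the Cy3 panel ZFYVE19, SLC32A1, ANP32A and KIAA1524 are highest on placebo array 1, and their groups separate except for ANP32A, whereas DOK5L, SGTB, MAP2 and NEDD4L separate in the Cy5 panel, with differences of 3.71 to 3.97. DOK5L, MAP2 and NEDD4L also separate in the Cy3 panel, where they are higher with TatNR2B9c.

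GRIN2B, DLG4 and NOS1, which encode the proteins of the complex that TatNR2B9c acts on, gave no call in the loess ratio of all 24 arrays. GRIN2B, the subunit whose tail the peptide copies, read -0.01, 0.09 and -1.02 with placebo and 0.13, 0.13 and 0.40 with TatNR2B9c, a difference of 0.54 (SE 0.52, limma adjusted p = 0.919). DLG4, which encodes PSD-95, read -0.13, 0.13 and -0.17 against 0.09, 0.36 and 0.49, a difference of 0.37 (SE 0.24, adjusted p = 0.714). NOS1 read -0.01, -0.01 and 0.19 against 0.03, 0.30 and 0.18, a difference of 0.12 (SE 0.17, adjusted p = 0.982). The groups overlapped for DLG4 and NOS1, and in Cy5 alone NOS1 was 1.12 higher (adjusted p = 0.00646). GRIN2B was called in 3 of 21 alternatives, with processed signals (2.08), the series matrix (2.07) and median centring (1.81), and NOS1 in 1, median centring (0.68). Cy3 was well above background on 1 placebo array and 0 TatNR2B9c arrays for GRIN2B, on 0 and 2 for DLG4 and on 0 and 3 for NOS1.

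GRIN1, the subunit that every NMDA receptor holds, differed by 1.36 (SE 0.45, limma adjusted p = 0.2), and its other probes by 1.34 and 1.18. It read -0.70, 1.25 and 1.21 against 2.03, 1.76 and 2.04, with no overlap and placebo array 1 lowest. GRIN2A, the NR2A subunit, differed by 1.79 (SE 0.44, limma adjusted p = 0.0639), from 0.59, 1.59 and 1.22 to 3.04, 3.04 and 2.69. Neither passed in Cy5, where they differed by 0.38 and 0.52, and with median centring they turned to -3.19 and -2.09. GRIN2A was called higher with processed signals (1.95), no background subtraction (2.06), equal spread (3.34), array weights (1.72) and without placebo array 2 (2.02), and GRIN1 with equal spread (3.50).

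Of the 32 measured genes of the NMDA receptor and PSD-95 complex, 1 was called higher (0.852% over all genes) and none lower, and 25 were above 0. The called gene was CAMK2B, the beta subunit of CaMKII, at 0.37, 1.53 and 1.17 with placebo and 2.96, 2.70 and 2.33 with TatNR2B9c, a difference of 1.64 (SE 0.38, limma adjusted p = 0.0458). The list's median difference was 0.40, against 0.02 over all genes, and it was 0.20 in Cy5 and -0.43 in Cy3. In Cy3 2 members were called higher and 11 lower (15.2% and 13.1% over all genes), and in Cy5 5 higher and 1 lower (10.1% and 12.6%). With median centring the list's median was -1.28, and with processed signals 1.08.

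Among the 13 AMPA and kainate receptor genes, GRIA2, the subunit that keeps AMPA receptors closed to calcium, was called higher by 2.52 (SE 0.52, limma adjusted p = 0.0285). It read -0.14, 1.85 and 1.76 against 3.91, 3.80 and 3.32, and it differed by 0.41 in Cy5 and -1.75 in Cy3 (adjusted p = 0.0203). GRIA2 was the only member called, against 0.852% called higher over all genes. The median of this list was 0.46 and 11 of 13 members were above 0. No gene was called among 7 metabotropic glutamate receptors (median 0.23) or 15 GABA receptor genes (median 0.27). With median centring these 3 medians became -1.37, -2.30 and -1.72, and with processed signals 2.19, 1.49 and 1.27.

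The ion channel and transporter lists held 4 called genes, all higher, against 0.852% called higher over all genes. Of 12 sodium channel genes, 8 were above 0 with a median of 0.12. In Cy5 2 of these were called higher and 2 lower (10.1% and 12.6% over all genes). SCN8A, the sodium channel of the axon's start, read 0.16, 0.60 and 0.21 against 1.89, 2.54 and 1.95 and was 1.80 higher (SE 0.30, limma adjusted p = 0.00777), and 3.55 higher in Cy5. It was also 1.24 higher in Cy3, where its signal was well above background on no placebo array. Among 45 potassium channel genes KCNIP3, a calcium-binding partner of these channels, and KCNH3 were 1.74 and 1.71 higher (limma adjusted p = 0.0472 and 0.0367), and 40 of the 45 were above 0 with a median of 0.24. Neither gene passed in Cy5, with 0.42 and 0.43, and KCNH3 was called lower in Cy3, by -1.40. SLC8A2, a sodium-calcium exchanger, was called among 16 exchangers and pumps, at -2.91, -2.53 and -2.79 against 0.03, 0.65 and -0.90, and its Cy3 difference was -2.61. In Cy5 it was not called, at 1.10, and its probe held GGGG. None of 15 calcium channel genes was called, although 14 were above 0 (median 0.33). In Cy3, 18 of the 45 potassium channel genes and 8 of the 15 calcium channel genes were called lower, against 13.1% over all genes. With median centring the medians of the potassium, calcium and exchanger lists were -0.76, -0.89 and -1.39, and with processed signals 0.76, 1.99 and 0.58.

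Neuron markers had a median of 1.42, the highest of the 35 lists with the loess ratio. With processed signals they had 1.38, below AMPA and kainate receptors (2.19), calcium channels (1.99) and metabotropic receptors (1.49), and with median centring -2.41. Of 27 measured, 25 were above 0 and 3 were called higher (0.852% over all genes), namely MAP2, SLC32A1 and NEFL. NEFL, the light neurofilament, read -0.02, 0.79 and 0.50 against 2.28, 2.13 and 1.68, a difference of 1.61 (SE 0.36, limma adjusted p = 0.0424), with 2.74 in Cy5 and 0.91 and 1.07 by its other probes. For 17 of the 27 the groups did not overlap, all higher with TatNR2B9c, against 10.8% higher without overlap over all genes. That share is not matched for signal, as 24 of the 27 were well above background in Cy5 on all 6 arrays, against 45.8% of all genes. Among 1573 genes well above background in both channels on all 6 arrays, the median difference was 0.35, with 202 called higher and 4 lower. Array by array, the list's median log2 ratio was 0.05, 1.32 and 0.81 with placebo and 2.19, 2.24 and 1.84 with TatNR2B9c.

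In Cy5 alone 7 of the 27 neuron markers were called higher and 4 lower (10.1% and 12.6% over all genes), with a median of -0.14. MAP2 at 3.71 and NEFL at 2.74 were among the 7 and do not stand for the list, whose Cy5 median was below 0. In Cy3 3 were higher and 11 lower (15.2% and 13.1% over all genes), with a median of -0.56. CAMK2A, the alpha subunit of CaMKII, differed by 2.53 in the ratio (limma adjusted p = 0.141), -0.58 in Cy5 (adjusted p = 0.121) and -2.20 in Cy3. The list's ratio median was 0.92 without placebo array 1 and 0.75 without the weak-reference arrays, a setting that left 1 placebo array of left cortex at 1 h.

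No gene of the 27 measured for presynaptic vesicle release was called in the ratio, against 0.889% over all genes. Its median was 0.84, 25 were above 0, and in 16 the groups did not overlap, against 10.8% higher over all genes. Of its members 21 were well above background in Cy5 on all 6 arrays, against 45.8% of all genes. The list's median was 0.01 in Cy5, with 5 members called higher and 1 lower (10.1% and 12.6% over all genes). In Cy3 it was -0.68, with 1 higher and 10 lower (15.2% and 13.1% over all genes). Complexin CPLX2, which clamps vesicle fusion, and Bassoon (BSN), a scaffold of the release site, had the largest values, 2.57 (limma adjusted p = 0.0988) and 2.27 (adjusted p = 0.107). With median centring the list's median was -2.40 and with processed signals 1.04.

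The 41 immediate early genes gave no call in either direction, and 19 of them were above 0 (median -0.05). Over all genes 0.889% were called, so no call in lists of 19 to 41 genes does not show a lack of response. Inflammatory cytokines and NF-kB targets (38 measured) and interferon-stimulated genes (28 measured) likewise had none, with medians of -0.09 and -0.13. Heat shock genes (26), hypoxia-inducible targets (19), the unfolded protein and integrated stress response (25) and antioxidant enzymes (30) had no call, with medians of 0.15, 0.05, -0.05 and -0.14. With median centring the medians of these 7 lists were below -1, apart from the inflammatory list at 0.53. JUNB, an AP-1 subunit, had the largest value of the immediate early genes, 1.90 (limma adjusted p = 0.109), with its cortex channel well above background on 1 placebo array and no TatNR2B9c array.

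Among genes of general cell metabolism, GAPDH was called higher by 1.28 (SE 0.28, limma adjusted p = 0.0373), at -1.09, -0.42 and 0.00 against 1.00, 1.10 and 0.24, and by 1.19 in Cy5. The other calls were NDUFA9 and ATP5O of the respiratory chain (0.78 and 1.16), the proteasome subunit PSMD13 (0.81) and the cell death effector BAX (2.08), whose 3 other probes gave -0.09, 2.12 and 0.23. They were called among 53, 31 and 37 measured genes of their lists, and GAPDH among 18 glycolytic enzymes, against 0.852% called higher over all genes. BAX read -3.22, -2.31 and -2.90 with placebo and -0.26, 0.00 and -1.93 with TatNR2B9c. It differed by -2.10 in Cy3 (limma adjusted p = 0.0409), was not called in Cy5, and its probe held GGGG. None of 52 cytosolic ribosomal protein genes was called (median 0.15).

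Other cell types showed no called gene, against 0.889% called over all genes. Astrocyte markers had a median of 0.44 with 16 of 19 above 0, led by the glutamate transporters SLC1A3 (2.23) and SLC1A2 (1.92, limma adjusted p = 0.0639, and 3.72 in Cy5). In Cy5 the astrocyte median was -0.19, with 2 called higher and 4 lower (10.1% and 12.6% over all genes), so the SLC1A2 value does not stand for the list. Oligodendrocyte markers had a median of 0.00 in the ratio and -1.09 in Cy5, where 6 of 21 were called lower and none higher (12.6% and 10.1% over all genes). Microglia and macrophage markers had -0.10 in the ratio and 0.36 in Cy5, with 6 of 17 called higher there and 9 of 17 called higher in Cy3, against 10.1% and 15.2% over all genes. Endothelial, red cell, neutrophil, lymphocyte and meningeal markers had ratio medians of 0.14, 0.22, 0.12, -0.13 and 0.35. With median centring the astrocyte and oligodendrocyte medians were -2.77 and -2.76, and 31 of the 35 list medians were below 0, against 8 with loess.

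**Figure D3:**
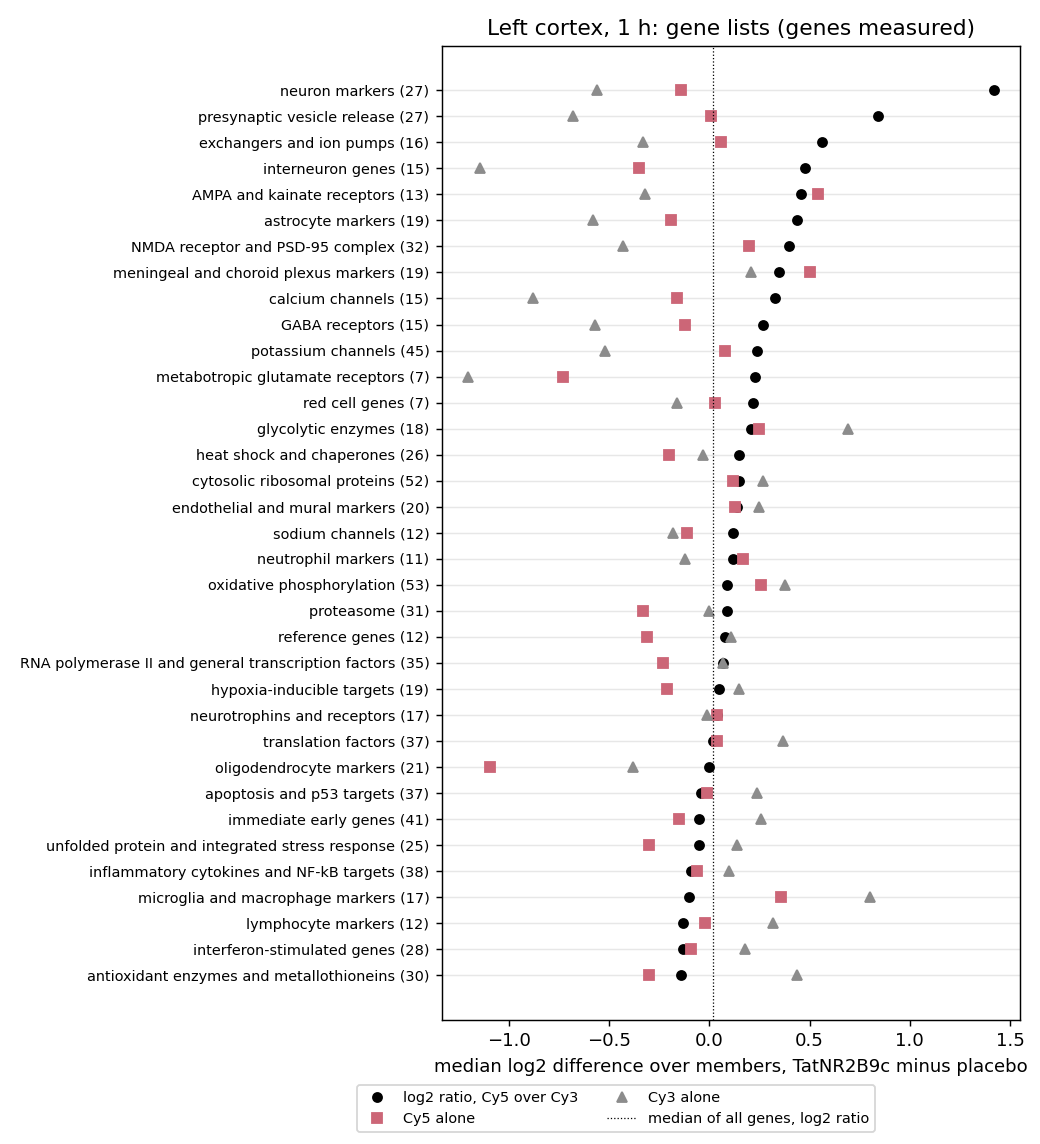
Median log2 difference of TatNR2B9c minus placebo over the measured members of each of the 35 gene lists (number measured in brackets) in the ratio (black), Cy5 alone (red) and Cy3 alone (grey), with the median of all genes in the ratio dotted. Neuron markers and presynaptic genes lie at 1.42 and 0.84 in the ratio but at -0.14 and 0.01 in Cy5, and with median centring in place of loess their ratio medians were -2.41 and -2.40.

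The probes shown above led to a count of G runs over all probes, made after the values were seen and given as a description. The string GGGG, searched as written on the probe strand, was in 15.9% of the 15967 probes, and in 62 of the 136 probes called higher (45.6%). Of the other strings of 4 equal bases counted, CCCC was in 18.1% of all probes and 19.1% of those called higher, and TTTT in 37.1% and 38.2%. Among probes with no run of 3 or more G, 0.525% were called higher. With 1, 2 and 3 or more such runs the share was 0.615%, 1.18% and 6.11%, the last being 41 of 671 probes.

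The genes called higher were also divided by their placebo level, at a value set after the data were seen, so what follows only describes them. In 50 of the 136 the mean placebo log2 ratio was below -1, and 46 of these probes (92%) held GGGG, as the ZFYVE19, SLC32A1 and ANP32A stretches do. In the other 86, 16 probes (18.6%) held GGGG. The probes of MAP2, SGTB, CaMKIINalpha, NEDD4L, SNPH, PRKCB, NTRK2 and GRIA2 held no GGGG.

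Over all 671 probes with 3 or more runs, the median Cy3 signal was 8.89, 8.01 and 8.28 on the placebo arrays and 7.94, 7.61 and 8.18 on the TatNR2B9c arrays. Placebo array 1 was the highest and TatNR2B9c array 2 the lowest, and the groups overlapped. For the 8960 probes with no run it lay between 7.43 and 7.57 on the 6 arrays. When probes with GGGG were left out, 39 genes were called higher and 2 lower of 13513, and the neuron marker median was 1.27. Of the 142 genes of the main count, 82 were still tested, all with the same sign, and 41 kept their call. SGTB, whose probe held no GGGG, was among those tested that lost it. The part of G runs in the calls was not tested.

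**Figure D4:**
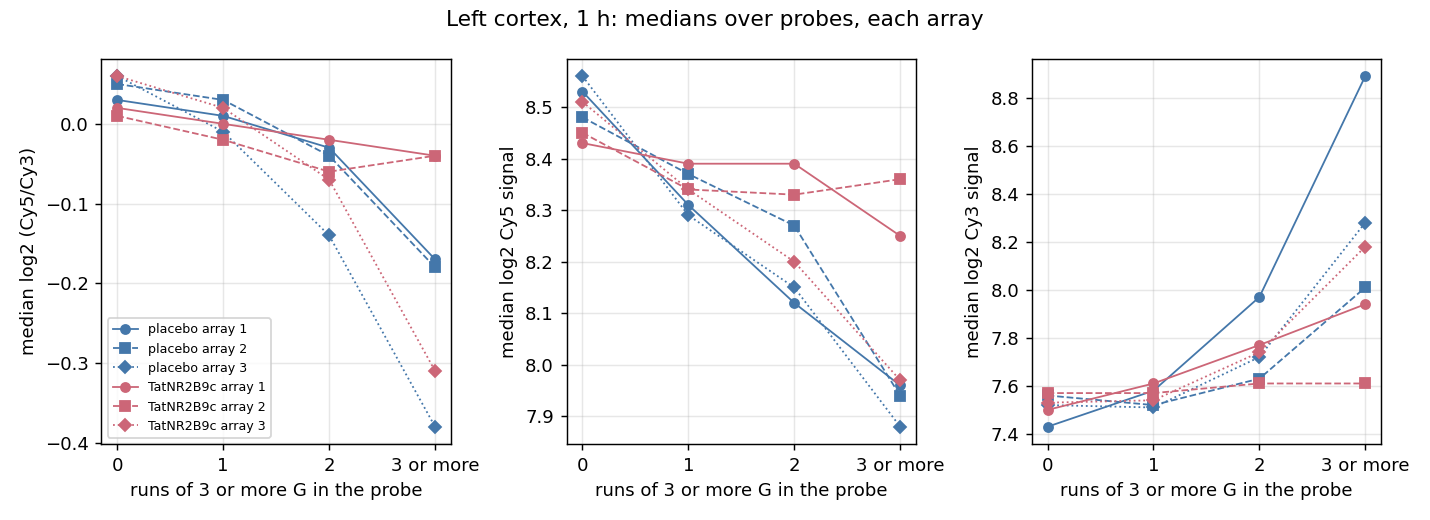
Median over probes of the log2 ratio (left), log2 Cy5 (middle) and log2 Cy3 signal (right) on each array of left cortex at 1 h, by the number of runs of 3 or more G in the probe. In Cy3 the lines part as runs increase, reaching 8.89 on placebo array 1 and 7.61 on TatNR2B9c array 2 for probes with 3 or more runs.

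The same contrast in the ischemic right cortex at 1 h gave 58 higher genes (0.363%) and 196 lower (1.23%), 1.59% in all. Of the 136 genes higher in left cortex, 135 had the same sign on the right and 36 were called there, with a median of 1.04 against 1.73 on the left. All 6 lower genes were called lower on the right, with a median of -1.77 against -1.10. In all, 42 genes were called in both hemispheres with the same sign, which is 29.6% of the left calls and 16.5% of the right calls. The hemispheres used separate arrays of the same animals. For each animal both arrays lay on the same slide, with the same scan day and software version. So treatment and campaign cannot be told apart on the right either. The share of all genes with the same sign on both sides was not counted. MAP2 was 1.95 higher on the right (limma adjusted p = 0.0162), SGTB 2.45 higher (adjusted p = 0.0212) and MUPCDH 3.00 lower (a difference of -3.00, adjusted p = 0.000236).

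The test of the difference between the hemispheres called 0 genes (0%) by limma, with 278 at an unadjusted p under 0.05. The right count was 62, 24, 16 and 64 without right placebo array 1 or 3 or right TatNR2B9c array 1 or 2, and 54 without the weak-reference arrays.

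At 6 h the contrast in left cortex looked different. It called 1698 genes higher (10.6%) and 2186 lower (13.7%), 24.3% in all, although with the software's processed signals the number was 28. Of the 136 genes higher at 1 h, 43 had the same sign at 6 h, 1 was called higher and 5 were called lower, and their median was -0.24. The test of the difference between the times called 2263 genes (14.2%), 1436 (8.99%) with the larger value at 1 h and 827 (5.18%) with the larger at 6 h. It called 114 of the 136, a share that the choice of genes for a high value at 1 h raises.

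MAP2, for example, differed by 2.19 at 1 h and -0.01 at 6 h, and CAMK2A by 2.53 and -1.35. The neuron marker median was 1.42 at 1 h and -0.63 at 6 h, and the presynaptic median 0.84 and -0.89. DLG4 was called lower at 6 h, by 1.25 (a difference of -1.25, limma adjusted p = 0.00173). MUPCDH, in contrast, was lower at both times, by -1.59 and -1.08.

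The placebo arrays of 6 h were read with a further software version, 10.5.1.1, so times and campaigns cannot be told apart either. The count at 6 h was 2307, 2568, 2036 and 2426 without placebo array 1 or 3 or TatNR2B9c array 1 or 3 of that time. The number of genes differing between times was 5 without the weak-reference arrays and 150 with processed signals. Leaving out single arrays gave 484 and 1437 without placebo array 1 and 3 of 1 h, 587 and 1254 without TatNR2B9c array 2 and 3 of 1 h, 832 and 1153 without placebo array 1 and 3 of 6 h, and 667, 4808 and 764 without TatNR2B9c array 1, 2 and 3 of 6 h.

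**Figure D5:**
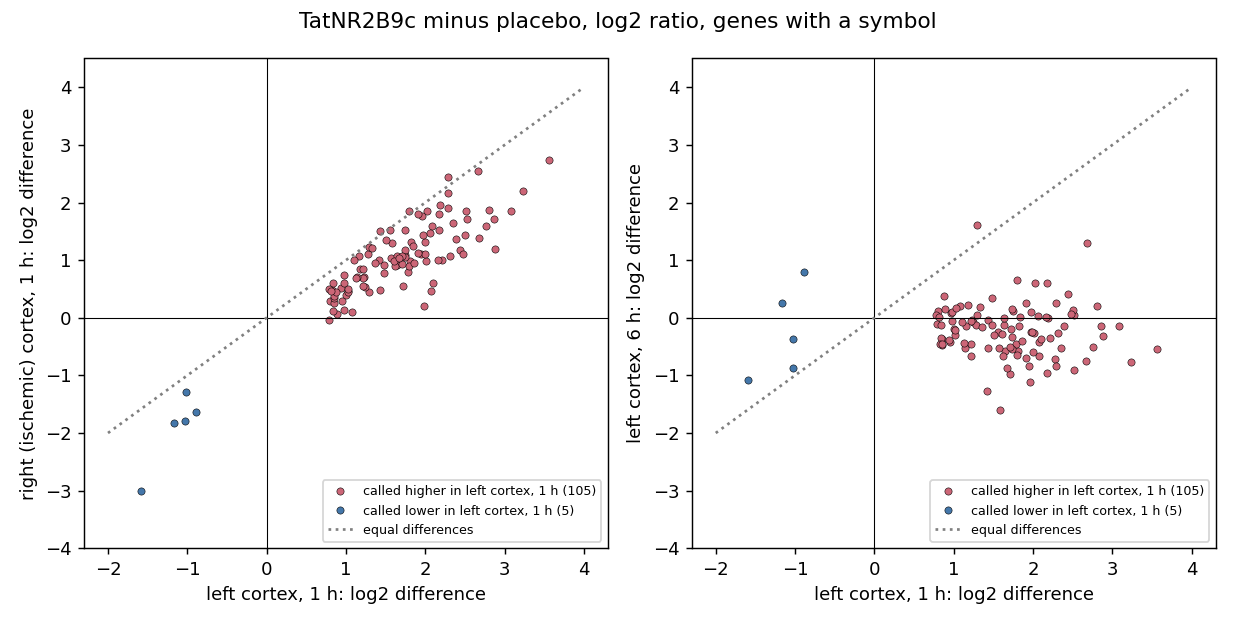
Log2 ratio difference of TatNR2B9c minus placebo in right cortex at 1 h (left panel) and left cortex at 6 h (right panel) against left cortex at 1 h, for the 105 higher (red) and 5 lower (blue) genes with a symbol that were called in left cortex at 1 h, with a dotted line of equal differences. Over all 136 higher genes the median was 1.04 in right cortex, below the 1.73 of left cortex, and at 6 h the points lie about 0 with a median of -0.24.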

How the data were processed

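For each spot and channel the deposited intensity is a linear mean signal with a median local background, extracted by Agilent Feature Extraction per the file headers (version 10.7.3.1 per the submitters' processing notes). Per the file headers, this software also gave processed intensities, corrected for background and dye. Deposited log10 ratios divide the processed Cy5 signal by that of Cy3, and those in the series matrix match them. Flags of 0 or 1 for background, saturation and uniformity were deposited too.

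With limma 3.58.1 in R 4.3.3, signals were corrected by normexp (offset 50), log2 ratios were normalised by loess with controls at weight 0, non-uniform spots were dropped and spots of 1 probe averaged. Cy5 and Cy3 alone were normalised by quantiles over 24 arrays. Probes had to exceed background clearly in Cy5 on all arrays of 1 group or more (17226 probes), and a gene was read by its brightest probe (15967 genes, 12835 with a symbol, 1037 with several probes). Names are those of the array files and can be old. A model with 1 mean for each of the 8 groups was fitted to all 24 arrays with lmFit and eBayes, and p-values were adjusted by Benjamini-Hochberg over all genes. The script was tested on simulated data with independent noise and no campaign difference between the groups compared. It called 53% of changes of log2 size 1 and 89% of those of size 2, with 9 false calls. The number of arrays limits the precision.

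Named genes were the 8 highest and 8 lowest called in the ratio (5 lower had a symbol), the 6 with the largest smaller difference of ratio and Cy5, GRIN1, GRIN2A, GRIN2B, DLG4 and NOS1, list members called or else with the largest differences, and up to 4 each way that differed between times. The results of 2 genes that this rule takes are not reported here. The comparison and the gene lists were chosen with earlier results of these data known. Leaving out probes with GGGG, and a filter on Cy3, were alternatives chosen after seeing the data.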

Additional observations from a re-analysis of the deposited data

Results flagged for a closer look

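The contrast of TatNR2B9c and placebo in left cortex differed between 1 h and 6 h for 2263 genes by the test of the difference itself (limma, adjusted p under 0.05). The genes named from this test are given as the difference at 1 h minus that at 6 h. ZFYVE19 had 4.10 (adjusted p = 0.0061) and SLC32A1 4.0 (adjusted p = 0.00821), both high at 1 h and without a call at 6 h. CAMK2A had 3.88 (adjusted p = 0.0274) and was called at neither time. KCTD1, a potassium channel tetramerisation domain protein, had 3.86 (adjusted p = 0.0124), with 1.47 at 1 h and -2.38 at 6 h.

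HBB, beta globin of red cells, had -3.70 (limma adjusted p = 0.0249), with 1.33 at 1 h and 5.03 at 6 h (adjusted p = 0.000321). HPGD, which inactivates prostaglandins, had -2.97 (adjusted p = 0.0433), with -0.35 at 1 h and 2.62 at 6 h. ANKRD1, an ankyrin repeat cofactor, had -2.96 (adjusted p = 0.0449), with -0.64 and 2.31. SLC23A3 had -2.71 (adjusted p = 0.0127), with -0.64 and 2.08, and its cortex channel at 1 h was well above background on 0 of 6 arrays. Groups of 3 arrays were not searched for outlying samples.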

How the results depend on the processing

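Main counts were 142 genes called in left cortex at 1 h (ratio), 3635 in Cy5, 4509 in Cy3, 59 in both ratio and Cy5, 254 in right cortex, 3884 in left cortex at 6 h and 2263 that differed between times. With processed signals the counts were 1918 at left 1 h, 947 at right 1 h, 28 at left 6 h and 150 between times. The series matrix gave 1919 at left 1 h, median centring 12311, equal spread 1647, array weights 346, scan day as a random block 49, a Cy3 filter 246 and no GGGG probes 41. The last pair were chosen after seeing the data. The 6 arrays alone gave 0 in the ratio, 0 in ratio with Cy5 and 33 in Cy3. Without the weak-reference arrays the counts were 22 at left 1 h, 54 at right 1 h, 5 between times, 793 in Cy5 and 7 in ratio with Cy5. Centring on the 75th percentile gave 11494 in Cy5 and 924 in Cy3. Leaving out single arrays gave 14 to 222 at left 1 h, 16 to 197 at right 1 h, 2036 to 5589 at left 6 h, 484 to 4808 between times, 2209 to 3443 in Cy5, 2754 to 6154 in Cy3 and 4 to 78 in ratio with Cy5. The difference between hemispheres had 0 genes in each fit run.

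The replicate block gave 75 genes at left 1 h, 67 at right 1 h, 1216 between times and 29 in ratio with Cy5. The same number names different animals, and same-numbered left 1 h arrays deviated together with r of 0.33, -0.18 and 0.36, so the block pairs nothing in the design.

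Median centring reversed SNPH (-1.53), PRKCB (-1.42), NTRK2 (-1.51), CaMKIINalpha (-2.17), VAX2 (-0.96), GRIN1 (-3.19), GRIN2A (-2.09), DLG4 (-0.10), CAMK2A (-2.53), KCTD1 (-1.38), HBB (-4.60), HPGD (0.37) and SLC23A3 (0.46). HPGD was 0.03 with array weights, 0.60 without the weak-reference arrays and 0.16 without placebo array 1 (-0.82 to 0.16 without single arrays), and ANKRD1 0.31 without the weak-reference arrays. Of the other values of named genes over the alternatives, 461 kept direction and side of the threshold, 124 lost the call and 15 gained one. The causes were not tested. Cy3 signal near background on placebo arrays 1 and 3 limits the ratios of dim genes.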
